A study of Mus musculus with 5 samples.

Results

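The genes described here are the semaphorins, plexins, Slits, Robos and netrins, with the netrin receptors, in 2 cell populations sorted from mouse pancreas. They are ligands and receptors of cell guidance, chosen by name as a list of 37 gene symbols outside the Eph and neuropilin families. The list also holds Cttnbp2, which encodes a cortactin-binding protein of the cytoskeleton and is neither a ligand nor a receptor. Of the 37, 36 were in the tables of all 5 libraries, among 16992 symbols common to them. Dcc, the netrin receptor gene, was not in the table of CD133(high)CD71(low) library 3, and was listed at 0.00303 and 0 RPKM in the other CD133(high)CD71(low) libraries and at 0 in both CD133(positive)CD71(negative) libraries. RNA was sequenced from 3 libraries of CD133(high)CD71(low) cells and 2 libraries of CD133(positive)CD71(negative) cells, both freshly sorted from the pancreas of C57BL/6 mice aged 2 to 4 months, with no genetic change or treatment named. Its title presents the study as one on enriching progenitors that form colonies, in the first population. Prom1 is the gene of CD133, and Tfrc that of CD71, the receptor that takes up transferrin. The marker field of the labels calls the first population positive for CD71, while the titles call it low. Whether each library had its own animals or sort is not labelled, so p-values reflect only library-to-library spread, possibly technical.

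Semaphorins are secreted, membrane-spanning or lipid-anchored proteins that steer axons, vessels and epithelial sheets through plexin receptors, whose cytoplasmic part acts on small GTPases and the actin skeleton. Secreted class 3 semaphorins mostly need a neuropilin as co-receptor, while many membrane-bound semaphorins bind plexins directly. Slits signal through Robo receptors, and netrins through DCC, neogenin and the UNC5 receptors. Outside the nervous system these proteins are known for shaping blood vessels, immune cell traffic and branching epithelia.

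Values are the authors' deposited RPKM, a read count corrected for transcript length and library depth, as inferred from the values. Depth read from the step between low values was 31.8 to 31.9 and 30.7 to 30.8 M reads in CD133(high)CD71(low) libraries 1 and 2, and 19.7 to 19.8 M in CD133(positive)CD71(negative) library 2, over 5 ranges of low values. It was not settled for CD133(high)CD71(low) library 3 (41.8 to 83.7 M) or CD133(positive)CD71(negative) library 1 (25.4 to 50.8 M), where some ranges gave a doubled value. No fold change or test here uses the depth. Library 3 of CD133(high)CD71(low), the one without a number in its title, was deposited with other gene symbols (22522 against 18618) and was unlike libraries 1 and 2, with a Pearson r of 0.911 and 0.920 across 11769 genes on the log2(RPKM + 1) scale, against 0.994 between those 2. Prom1 measured 72.8, 74.7 and 133.3 RPKM in CD133(high)CD71(low) libraries and 45.8 and 48.8 in CD133(positive)CD71(negative) libraries. Tfrc measured 5.34, 6.84 and 12.2 against 4.00 and 4.36. Both were higher in every CD133(high)CD71(low) library, but neither passed the test described below over 5 libraries (limma adjusted p = 0.0909 and 0.151).

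Guidance genes did not move one way between the populations. Semaphorin and plexin genes such as Sema3b, Sema3c, Plxnb1 and Plxnb2 were higher in CD133(high)CD71(low) cells, and others such as Sema3g, Sema7a, Plxna2 and Plxnd1 were lower. Of the 36 genes 25 had a mean of at least 1 RPKM and were tested with limma on the log2(RPKM + 1) scale, the other 11 lying below this filter. At a limma adjusted p under 0.05, 7 of the 25 were higher in CD133(high)CD71(low) cells and 8 were lower. Over all 11769 genes tested, 6.25% were higher and 7.22% lower. Of the lower guidance genes, Sema6b averaged 0.54 RPKM in CD133(high)CD71(low) libraries and passed the filter only through the CD133(positive)CD71(negative) libraries. The groups did not overlap in 23 of the 25, with CD133(high)CD71(low) above in 14 and below in 9, against 58.2% and 12.0% of all genes. The 2 with overlapping groups were Sema4a and Sema4d. The median log2 fold change was 0.26 over the 25 genes and 0.31 over all genes, so positive fold changes stand against a general upward shift. In bulk RNA of sorted cells, fewer cells of a type and less RNA per cell cannot be told apart.

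With median-of-ratios scaling, which brought the median over all genes to 0.02, the 8 lower genes were all called, and Sema3c and Cttnbp2 alone of the 7 higher genes (1.87% of all genes were then higher and 9.40% lower). With the same scaling on the 4 numbered libraries all 15 were called, among 9 higher and 9 lower guidance genes, against 12.3% and 17.9% of all genes. Without CD133(high)CD71(low) library 3, 14 guidance genes were higher and 9 lower, including all 15 called with 5 libraries, against 40.9% and 12.2% of all genes. Both counts fell to 0 without CD133(high)CD71(low) library 2, without CD133(positive)CD71(negative) library 1 and without CD133(positive)CD71(negative) library 2, although 19, 12 and 16 of the genes had an unadjusted limma p under 0.05 there. Without CD133(high)CD71(low) library 1, 1 guidance gene was higher (Cttnbp2) and 7 were lower, against 0.753% and 6.63% of all genes, and without CD133(high)CD71(low) library 2, 0.338% of all genes were higher and 4.75% lower. Over all genes, 0 were higher and 157 lower without CD133(positive)CD71(negative) library 1, and 1 higher and 154 lower without library 2 of that group. Every one of the 15 calls named below shares this limit: its highest limma adjusted p with a library left out was between 0.0595 (Sema6b, which was below the filter without either CD133(positive)CD71(negative) library) and 0.383 (Plxnb2).

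**Figure D1:**
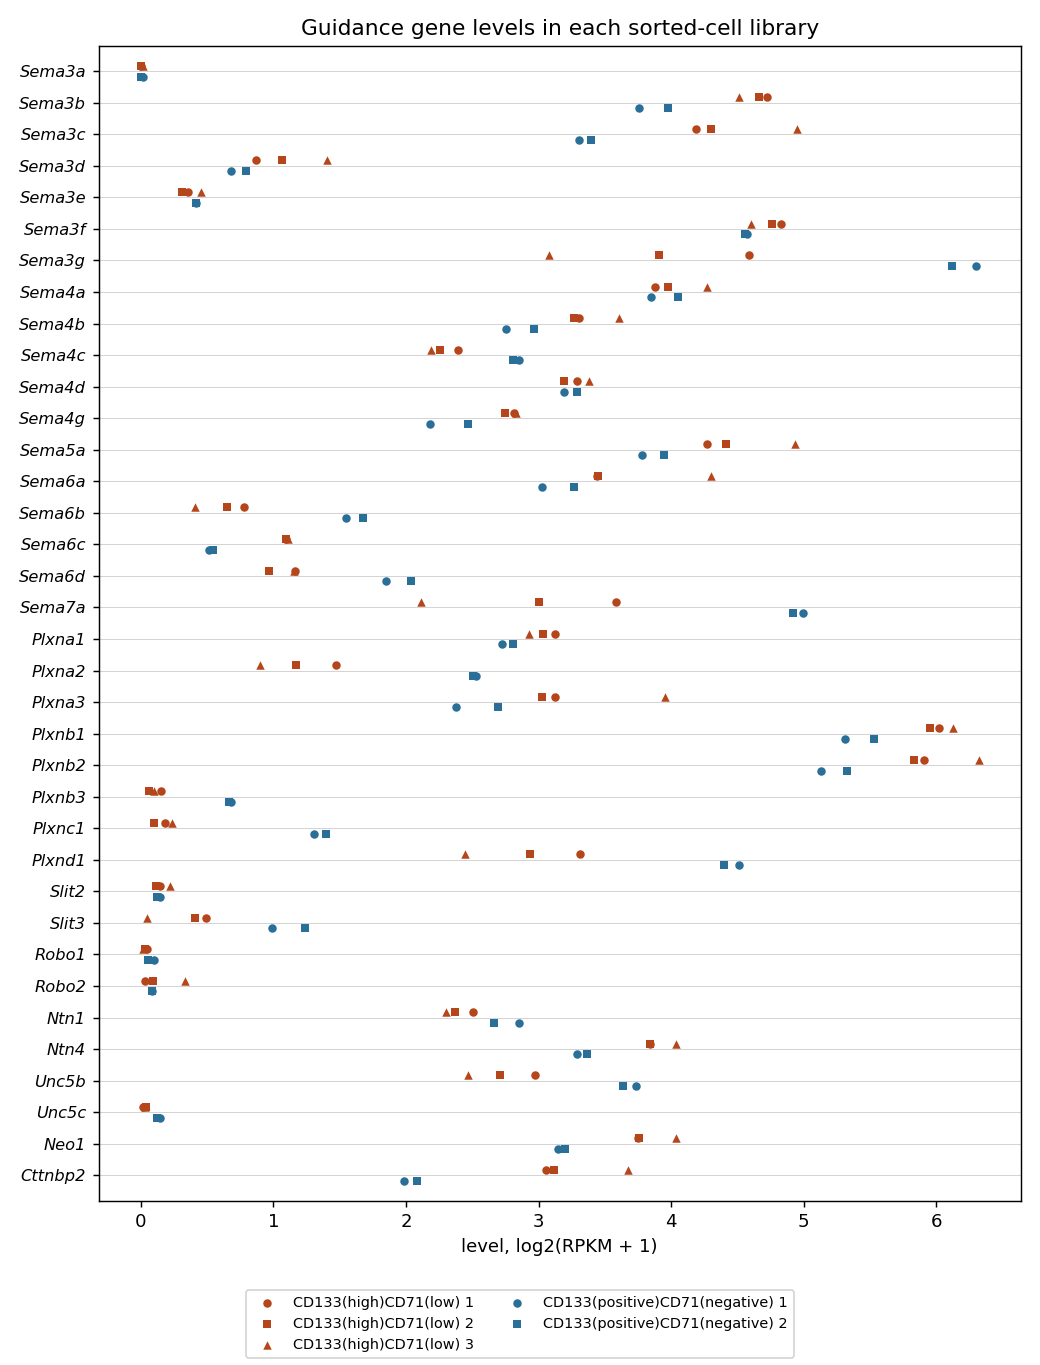
Levels of the 36 guidance genes listed in all tables, on the log2(RPKM + 1) scale, with 1 point per library; CD133(high)CD71(low) libraries are drawn above CD133(positive)CD71(negative) libraries in each row. Plxnb1 and Plxnb2 lie furthest right among CD133(high)CD71(low) libraries (55.9 to 78.8 RPKM) and Sema3g among CD133(positive)CD71(negative) libraries (77.9 and 68.5 RPKM), while Slit2, Robo1 and Robo2 lie near 0.

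Class 3 semaphorins, the secreted ligands, held 2 genes that rose, 1 that fell and 1 abundant gene that was not called, Sema3f. The other 3 were below the filter, and of all genes tested 6.25% were higher and 7.22% lower. Sema3b (chromosome 9, 107597674 to 107609229, mm10), known as a ligand of neuropilin and A plexin receptors, measured 25.4, 24.3 and 21.8 RPKM in CD133(high)CD71(low) libraries, against 12.5 and 14.7 in CD133(positive)CD71(negative) libraries. All 3 lay above the other two, and Sema3b rose by a log2 fold change of 0.77 ± 0.13 (SE; adjusted p = 0.0218 by limma). Sema3c (chromosome 5, 17574281 to 17730268), known for guiding neural crest and vascular cells in the heart outflow tract, measured 17.2, 18.7 and 29.9 against 8.87 and 9.54. It rose by a log2 fold change of 1.13 ± 0.25 (SE; adjusted p = 0.042 by limma), and library 3 was the highest, the value without it being 0.89 (limma adjusted p = 4.32e-05). Sema3g (chromosome 14, 31217860 to 31230352), known from arterial endothelium, measured 23.0, 14.0 and 7.45 against 77.9 and 68.5. It fell to a mean of 14.8 ± 7.82 in CD133(high)CD71(low) libraries, against 73.2 ± 6.67 in CD133(positive)CD71(negative) libraries (SD, n = 3 and n = 2; log2 fold change -2.35, SE 0.43, limma adjusted p = 0.0244). Sema3g was the most abundant of the 36 genes in CD133(positive)CD71(negative) libraries, above Plxnb1 at 38.6 and 45.2.

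Sema3f (chromosome 9, 107681500 to 107710475), a neighbour of Sema3b on the same strand and a known neuropilin-2 ligand, measured 27.4, 26.1 and 23.2 RPKM in CD133(high)CD71(low) libraries and 22.8 and 22.5 in CD133(positive)CD71(negative) libraries. The groups lay close together (log2 fold change 0.17 with an SE of 0.12 and limma adjusted p = 0.324), and with median-of-ratios scaling the sign turned to -0.16. Sema3f passed without library 3 (0.23, limma adjusted p = 0.0377), where 40.9% of all genes were higher. With median-of-ratios scaling on the 4 numbered libraries Sema3f was at 0.0069 (limma adjusted p = 0.952). Sema3d measured 0.82, 1.09 and 1.65 against 0.60 and 0.73, a mean just under the filter at 0.98. Sema3e, the direct ligand of plexin D1, was at 0.28, 0.24 and 0.37 against 0.34 and 0.34. Sema3a, a repellent of axons, was listed at 0, 0 and 0.0104 against 0.0121 and 0. Sema3a, Sema3c, Sema3d and Sema3e all lie on chromosome 5, and only Sema3c of them was above 2 RPKM in any library.

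The 250 bases before the RefSeq start are shown for 4 called genes that moved in opposite directions, Sema3c and Neo1 (higher) and Sema3g and Sema7a (lower), as RefSeq gives them for GRCm38.p6 (mm10). They lie at chr5:17574566-17574815 (+), chr9:59036442-59036691 (-), chr14:31217623-31217872 (+) and chr9:57939862-57940111 (+). The RefSeq start lies 535 bases into the GENCODE gene span given above for Sema3c and 13 bases into that for Sema3g, and equals the GENCODE start for Neo1 and Sema7a. Capitals mark matches, on either strand, to any of 5 motifs. They were the GC box with the letters GGGCGG, an ETS family core with AGGAAG, a SOX family core with AACAAT, part of an HNF1 site with GTTAAT and the TATA box with TATAAA.
Sema3c: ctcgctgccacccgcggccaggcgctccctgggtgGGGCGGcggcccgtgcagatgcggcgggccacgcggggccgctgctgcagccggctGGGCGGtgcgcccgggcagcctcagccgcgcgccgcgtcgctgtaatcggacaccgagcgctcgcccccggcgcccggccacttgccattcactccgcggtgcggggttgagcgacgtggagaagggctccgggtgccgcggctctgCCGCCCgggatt
Neo1: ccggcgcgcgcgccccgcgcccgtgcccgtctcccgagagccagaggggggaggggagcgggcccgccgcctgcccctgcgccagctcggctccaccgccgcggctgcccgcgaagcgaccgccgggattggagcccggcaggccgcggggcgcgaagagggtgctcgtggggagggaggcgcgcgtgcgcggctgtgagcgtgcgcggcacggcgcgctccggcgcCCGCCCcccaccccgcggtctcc
Sema3g: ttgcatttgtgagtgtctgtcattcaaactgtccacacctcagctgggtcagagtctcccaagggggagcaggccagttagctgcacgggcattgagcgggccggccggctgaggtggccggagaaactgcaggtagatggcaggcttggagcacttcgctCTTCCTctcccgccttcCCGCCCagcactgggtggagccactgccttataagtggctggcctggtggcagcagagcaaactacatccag
Sema7a: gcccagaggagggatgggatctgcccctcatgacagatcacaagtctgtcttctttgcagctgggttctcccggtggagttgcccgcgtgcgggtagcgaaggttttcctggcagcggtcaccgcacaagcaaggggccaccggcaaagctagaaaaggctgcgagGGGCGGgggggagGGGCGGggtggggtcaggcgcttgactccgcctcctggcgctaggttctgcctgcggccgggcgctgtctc
All 4 held the GC box, with 3 matches in Sema3c, 1 in Neo1, 1 in Sema3g and 2 in Sema7a, and Sema3g alone of them held the ETS letters. Of the 15 called genes 14 had a promoter in the RefSeq table, and the GC box was in all 6 of the higher and all 8 of the lower ones. It was in 24 of the 31 members with a promoter, called or not, in 60.2% of the 8480 promoters of tested genes and in 32.9% of all 27025 promoters. Where a gene had more than 1 promoter the first listed was used, and 22 of the 31 members had only 1. The ETS letters were in 2 of the 6 and 2 of the 8 (27.6% of promoters of tested genes), and the SOX letters (4.97%), HNF1 letters (3.50%) and TATA box (6.19%) in none of the 14. Sema3c and Neo1 had a GC content of 78.4% and 83.2%, against 60.4% and 66.4% for Sema3g and Sema7a. GC content was computed for these 4 genes alone, so it gives no comparison of higher with lower genes.

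Class 4 semaphorins, membrane-spanning ligands of B plexins and of lymphocyte receptors, held 1 call among 5 tested genes, a fall. Over all genes 6.25% were higher and 7.22% lower. Sema4c, a ligand of plexin B2, measured 4.25, 3.79 and 3.56 RPKM in CD133(high)CD71(low) libraries, against 6.21 and 6.01 in CD133(positive)CD71(negative) libraries. It fell, at a log2 fold change of -0.55 ± 0.13 (SE; adjusted p = 0.0468 by limma), the smallest of the 8 falls. Sema4b measured 8.90, 8.63 and 11.2 against 5.74 and 6.82 (log2 fold change 0.53, limma adjusted p = 0.0834). Sema4g measured 6.04, 5.71 and 6.11 against 3.54 and 4.55 (log2 fold change 0.47, limma adjusted p = 0.0807). For both genes the groups did not overlap, and both passed without library 3 (limma adjusted p = 0.00677 and 0.0089). In that fit 40.9% of all genes were higher. With median-of-ratios scaling on the 4 numbered libraries neither gene was called (limma adjusted p = 0.0747 and 0.0778). Sema4d, the plexin B1 ligand first known from T cells, measured 8.76, 8.15 and 9.42 against 8.15 and 8.78. Sema4a, known from dendritic cells and T cell priming, measured 13.7, 14.7 and 18.3 against 13.4 and 15.6. These were the 2 tested genes whose groups overlapped (limma adjusted p = 0.771 and 0.666).

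Among the 5 tested genes of classes 5 to 7, Sema7a and 2 class 6 genes fell and none rose, against 7.22% lower and 6.25% higher over all genes. Sema7a (chromosome 9, 57940112 to 57962865), a lipid-anchored ligand of plexin C1 and of integrins, measured 11.0, 7.03 and 3.33 RPKM in CD133(high)CD71(low) libraries, against 30.8 and 29.2 in CD133(positive)CD71(negative) libraries. Its groups were far apart (log2 fold change -2.05 with an SE of 0.42 and limma adjusted p = 0.0335), with library 3 the lowest and library 1 the highest. Sema6b, a membrane-bound ligand of A plexins, measured 0.72, 0.57 and 0.33 against 1.92 and 2.20 (log2 fold change -1.0 with an SE of 0.15 and limma adjusted p = 0.0138). Sema6d, also an A plexin ligand and known from heart development, measured 1.24, 0.95 and 1.23 against 2.60 and 3.11 (log2 fold change -0.85 with an SE of 0.13 and limma adjusted p = 0.0162). Both were low, and Sema6b had a mean of 1.15 over the 5 libraries, near the filter. Sema6b averaged 0.54 RPKM in CD133(high)CD71(low) libraries and passed the filter only through the CD133(positive)CD71(negative) libraries, at 2.06.

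The other members of these classes were higher in every CD133(high)CD71(low) library, without a call over 5 libraries. Sema5a, a semaphorin with thrombospondin repeats, measured 18.3, 20.3 and 29.5 RPKM in CD133(high)CD71(low) libraries and 12.7 and 14.4 in CD133(positive)CD71(negative) libraries (log2 fold change 0.68, limma adjusted p = 0.0964). Sema6a measured 9.85, 9.94 and 18.7 against 7.13 and 8.64 (log2 fold change 0.58, limma adjusted p = 0.20). Without library 3 their fold changes were 0.48 and 0.30 and both passed (limma adjusted p = 0.00315 and 0.0338). In that fit 40.9% of all genes were higher. With median-of-ratios scaling on the 4 numbered libraries Sema5a was called (0.26, limma adjusted p = 0.0427) and Sema6a was not (0.09, limma adjusted p = 0.445). Sema6c measured 1.13, 1.14 and 1.16 against 0.43 and 0.46, without overlap, but its mean of 0.86 was below the filter.

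Plexins, the semaphorin receptors, were led by the B plexins in both populations and more so in CD133(high)CD71(low) cells. Plxnb1 (chromosome 9, 109095389 to 109119917), the receptor of Sema4d, measured 63.8, 60.8 and 68.7 RPKM in CD133(high)CD71(low) libraries, against 38.6 and 45.2 in CD133(positive)CD71(negative) libraries. It rose by a log2 fold change of 0.61 ± 0.13 (SE; adjusted p = 0.0371 by limma). Plxnb2 (chromosome 15, 89155549 to 89180788), an epithelial receptor of Sema4c, measured 58.9, 55.9 and 78.8 against 33.9 and 39.1 (log2 fold change 0.79 with an SE of 0.19 and limma adjusted p = 0.0486). Together they made up 82.3%, 83.9% and 84.7% of the summed RPKM of the 8 plexin genes in CD133(high)CD71(low) libraries and 65.3% and 68.7% in CD133(positive)CD71(negative) libraries. Neither call held with median-of-ratios scaling, where the log2 fold changes were 0.27 and 0.46 (limma adjusted p = 0.225 and 0.0553), while both held with that scaling on the 4 numbered libraries (0.34 and 0.42, limma adjusted p = 0.012 and 0.00382).

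Plxnd1 (chromosome 6, 115954811 to 115995005), the endothelial receptor of Sema3e, measured 8.96, 6.65 and 4.45 RPKM in CD133(high)CD71(low) libraries, against 21.8 and 20.05 in CD133(positive)CD71(negative) libraries. It fell, at a log2 fold change of -1.55 ± 0.26 (SE; adjusted p = 0.0198 by limma), and its share of plexin RPKM was 6.00%, 4.78% and 2.55% against 19.6% and 16.3%. Plxna2 (chromosome 1, 194618218 to 194816869), a receptor of class 6 semaphorins, measured 1.77, 1.25 and 0.87 against 4.77 and 4.68. Its fall had the smallest adjusted p of the 25 genes (log2 fold change -1.34 with an SE of 0.19 and limma adjusted p = 0.0116). The other A plexins, receptors of secreted semaphorins, did not pass over 5 libraries. Plxna1 measured 7.73, 7.21 and 6.62 against 5.63 and 5.99 (log2 fold change 0.26, limma adjusted p = 0.178, and -0.03 with median-of-ratios scaling). It passed without library 3 (0.32, limma adjusted p = 0.0173), but not with median-of-ratios scaling on the 4 numbered libraries (0.11, limma adjusted p = 0.299). Plxna3 measured 7.74, 7.15 and 14.5 against 4.20 and 5.46, so that library 3 was the highest (log2 fold change 0.84, limma adjusted p = 0.122, and 0.54 with limma adjusted p = 0.00446 without it). Without library 3, 40.9% of all genes were higher. With median-of-ratios scaling on the 4 numbered libraries Plxna3 was at 0.34 (limma adjusted p = 0.0354).

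Plxnc1 and Plxnb3 stayed under 0.2 RPKM in every CD133(high)CD71(low) library. Plxnc1, the Sema7a receptor found on myeloid cells, measured 0.14, 0.07 and 0.18 RPKM in CD133(high)CD71(low) libraries and 1.48 and 1.64 in CD133(positive)CD71(negative) libraries. Plxnb3 measured 0.11, 0.04 and 0.07 against 0.61 and 0.59. Both were below the filter. In the fit of all 16887 genes with any value above 0, in which 5.67% of genes were higher and 10.2% lower, both were called lower (limma adjusted p = 0.00083 and 0.00171). Slit3 and Unc5c were called lower in that fit as well (limma adjusted p = 0.0386 and 0.0298) and Sema6c higher (limma adjusted p = 0.00522), while Sema3c and Plxnb2 were not called there. The Unc5c call rests on a log2 fold change of -0.10 from values of at most 0.105 RPKM, where the pseudocount of 1 leaves little spread.

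**Figure D2:**
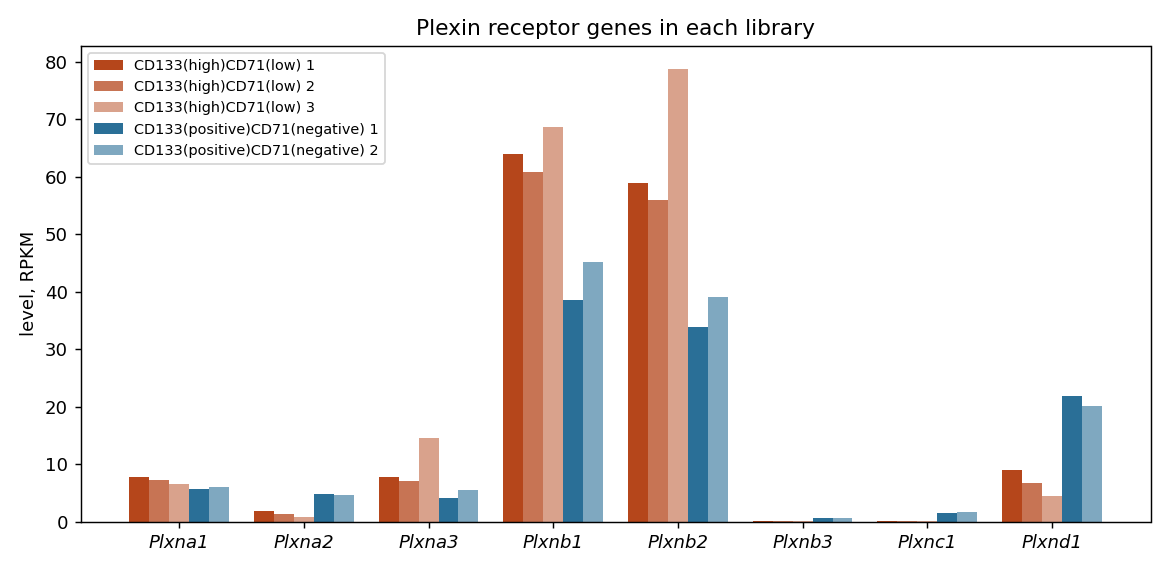
Plexin receptor genes, with 1 bar per library and the level in RPKM on a linear axis; CD133(high)CD71(low) libraries stand left of CD133(positive)CD71(negative) libraries for each gene. Plxnb1 and Plxnb2 reach 55.9 to 78.8 RPKM in CD133(high)CD71(low) libraries and 33.9 to 45.2 in CD133(positive)CD71(negative) libraries, and Plxnd1 and Plxna2 are higher in CD133(positive)CD71(negative) libraries.

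Slit and Robo genes were low in both populations, and only Slit3 reached 1 RPKM in any library. Slit3, a secreted Robo ligand, measured 0.41, 0.33 and 0.03 RPKM in CD133(high)CD71(low) libraries, against 0.99 and 1.36 in CD133(positive)CD71(negative) libraries, the highest of the 4 genes. Slit2 was at 0.11, 0.08 and 0.17 against 0.11 and 0.09. Among the receptors, Robo1 was at most 0.033 against 0.0725 and 0.04. Robo2 was at 0.02, 0.07 and 0.26 against 0.06 and 0.06, with library 3 the highest. None of the 4 had a mean of 1 RPKM.

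Netrins and their receptors moved in both directions, with 2 higher and 1 lower among 4 tested, against 6.25% and 7.22% of all genes. Ntn4 (chromosome 10, 93640681 to 93747207), a netrin of basement membranes that binds laminin, measured 13.4, 13.3 and 15.4 RPKM in CD133(high)CD71(low) libraries, against 8.77 and 9.28 in CD133(positive)CD71(negative) libraries. It rose by a log2 fold change of 0.58 ± 0.13 (SE; adjusted p = 0.0384 by limma; 0.27 and limma adjusted p = 0.138 with median-of-ratios scaling). Neo1 (chromosome 9, 58874687 to 59036441), encoding neogenin, a receptor of netrins and repulsive guidance molecules, measured 12.5, 12.5 and 15.4 against 7.85 and 8.16. It rose by a log2 fold change of 0.68 ± 0.14 (SE; adjusted p = 0.0349 by limma; 0.37 and limma adjusted p = 0.0504 with median-of-ratios scaling). Unc5b (chromosome 10, 60762593 to 60831581), the netrin receptor of vascular endothelium, measured 6.87, 5.55 and 4.54 against 12.3 and 11.4 and fell (log2 fold change -0.96 with an SE of 0.18 and limma adjusted p = 0.0258). Ntn1, the canonical axon attractant, measured 4.68, 4.16 and 3.94 against 6.22 and 5.32, below in every library (log2 fold change -0.36, limma adjusted p = 0.123). It was called lower without library 3 (-0.32, limma adjusted p = 0.0284), as were 12.2% of all genes. With median-of-ratios scaling on the 4 numbered libraries it was also called (-0.51, limma adjusted p = 0.0105), as were 17.9% of all genes. Unc5c was at most 0.0279 against 0.105 and 0.087.

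Cttnbp2 (chromosome 6, 18366478 to 18514843) had the largest rise of the 25 genes. It measured 7.32, 7.66 and 11.7 RPKM in CD133(high)CD71(low) libraries, against 2.97 and 3.23 in CD133(positive)CD71(negative) libraries (log2 fold change 1.25 with an SE of 0.22 and limma adjusted p = 0.0219). The call held with median-of-ratios scaling (0.96, limma adjusted p = 0.00927) and without library 3 (1.05, limma adjusted p = 1.92e-05).

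**Figure D3:**
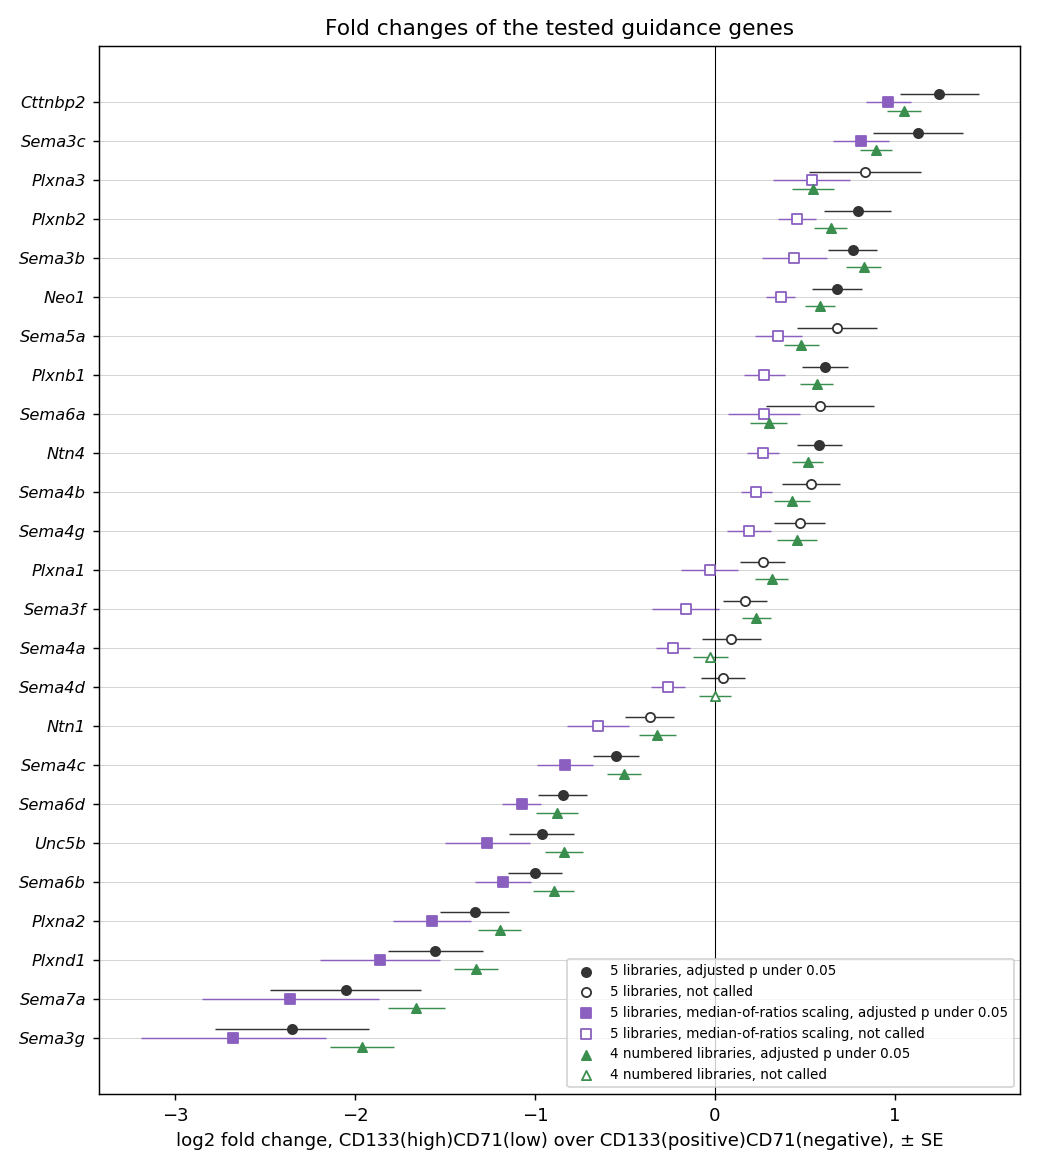
Log2 fold changes of the 25 tested genes on the log2(RPKM + 1) scale, CD133(high)CD71(low) over CD133(positive)CD71(negative), with bars of 1 SE, from 5 libraries, from 5 libraries with median-of-ratios scaling, and without CD133(high)CD71(low) library 3. Filled points are called at an adjusted p under 0.05; the 8 lowest genes are filled in all 3 settings, and of the higher genes Cttnbp2 and Sema3c are.

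Marker genes of other cell types differed between the populations alongside these genes. For the counts without overlap below, 58.2% of all 11769 genes tested were higher without overlap and 12.0% lower. The summed RPKM of 20 endothelial markers was 151.0 to 339.8 in CD133(high)CD71(low) libraries and 1152 and 1076 in CD133(positive)CD71(negative) libraries, and 19 of the 20 were lower without overlap. Of 22 leukocyte markers 21 were in all tables, all of them lower without overlap, with sums of 50.4 to 94.1 against 1898 and 1865. The 16 mesenchymal markers summed to 168.9 to 185.8 against 416.6 and 398.4, with 14 lower without overlap. The 15 duct epithelial markers summed to 5121 to 7265 against 3554 and 3780, with 13 higher without overlap. None of these markers was at 0 in any library. The 12 acinar markers summed to 203142, 206968 and 90799 RPKM in CD133(high)CD71(low) libraries, against 245606 and 218993 in CD133(positive)CD71(negative) libraries, with 8 lower without overlap. The 12 endocrine markers summed to 1584, 1841 and 592.7 against 1851 and 1678, with 9 lower without overlap, so library 3 was the lowest for both lists. The 10 Schwann cell markers summed to 46.2 to 53.7 against 49.3 and 49.4, with 2 higher and 8 lower without overlap and Foxd3 listed at 0 in some libraries.

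Levels of the fallen genes were set against marker sums of the same library, first the endothelial one. Sema3g measured 6.78, 6.32 and 4.93 RPKM per 100 RPKM of endothelial markers in CD133(high)CD71(low) libraries, against 6.76 and 6.36 in CD133(positive)CD71(negative) libraries. Sema7a measured 3.24, 3.17 and 2.20 per 100 against 2.68 and 2.72. For these genes the groups overlapped on this scale, while the unscaled levels were about 0.20 and 0.24 times as high in CD133(high)CD71(low) cells and the endothelial sum 0.21 times. Set against the leukocyte sum, both genes lay above in CD133(high)CD71(low) libraries, and set against the mesenchymal sum, below, without overlap. Sema3g measured 24.5, 17.3 and 14.8 per 100 RPKM of leukocyte markers against 4.11 and 3.67, and 12.4, 8.30 and 4.26 per 100 RPKM of mesenchymal markers against 18.7 and 17.2. Sema7a measured 11.7, 8.67 and 6.61 against 1.62 and 1.57 per leukocyte sum, and 5.92, 4.16 and 1.90 against 7.40 and 7.34 per mesenchymal sum. Plxnd1 (2.64, 3.00 and 2.94 against 1.89 and 1.86) and Unc5b (2.02, 2.51 and 3.01 against 1.07 and 1.06) lay above in CD133(high)CD71(low) libraries per endothelial sum, as did Plxna2, Sema6b and Sema6d. Sema4c did so by the most, at 1.25, 1.71 and 2.36 against 0.54 and 0.56. Per mesenchymal sum, Plxnd1 (4.82, 3.94 and 2.54 against 5.23 and 5.03), Plxna2 and Sema6b lay below, Unc5b and Sema6d overlapped and Sema4c lay above. Per leukocyte sum all of these genes lay above. Within CD133(high)CD71(low), 7 of the 8 fallen genes, all but Sema6d, were highest in library 1 and lowest in library 3, the order of the endothelial and leukocyte sums, as were 56.1% of the 850 genes called lower. The part of these cells in the falls was not tested.

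Levels of the risen genes were set in the same way against the duct epithelial sum, which was 1.59 times as high in CD133(high)CD71(low) libraries. Ntn4 measured 0.26, 0.26 and 0.21 RPKM per 100 RPKM of duct markers in CD133(high)CD71(low) libraries, against 0.25 and 0.25 in CD133(positive)CD71(negative) libraries. Plxnb1 (1.25, 1.19 and 0.95 against 1.09 and 1.20) and Sema3b (0.50, 0.47 and 0.30 against 0.35 and 0.39) overlapped too, as did Neo1. Plxnb2 (1.15, 1.09 and 1.08 against 0.95 and 1.03), Sema3c (0.34, 0.36 and 0.41 against 0.25 and 0.25) and Cttnbp2 (0.14, 0.15 and 0.16 against 0.084 and 0.085) were above in every CD133(high)CD71(low) library. The part of the duct share in the rises was not tested.

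**Figure D4:**
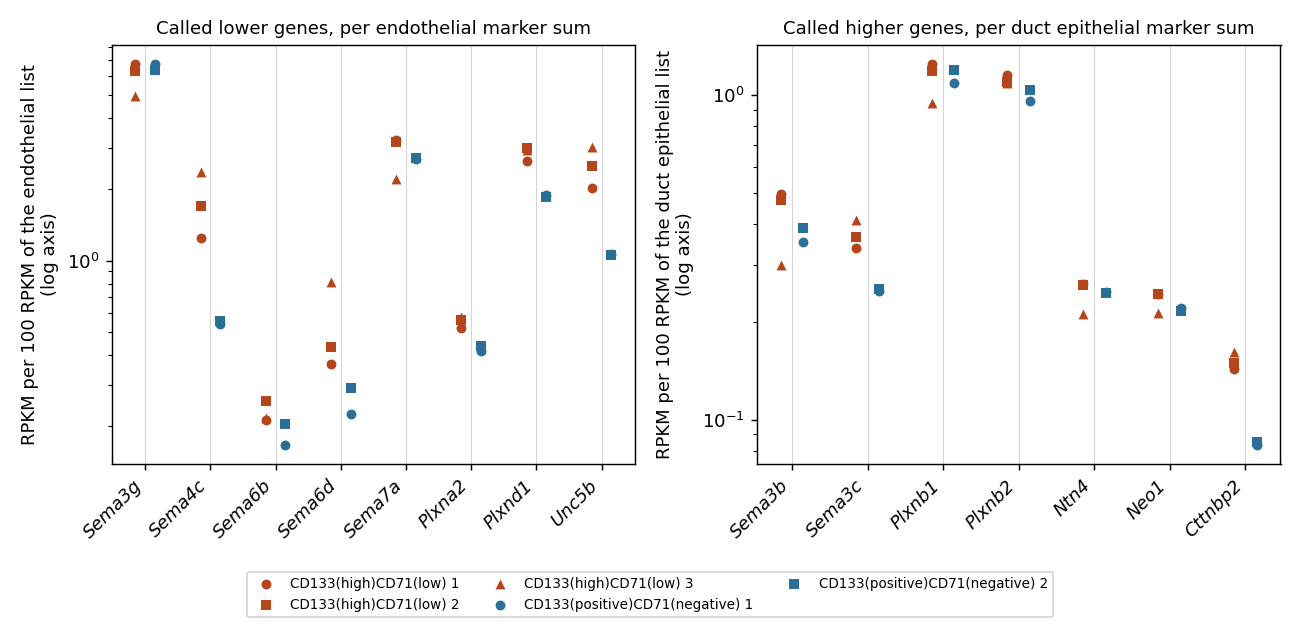
Levels of the 8 lower genes per 100 RPKM of the endothelial marker list (left) and of the 7 higher genes per 100 RPKM of the duct epithelial list (right), on log axes, with 1 point per library. Sema3g points of both groups lie between 4.93 and 6.78, while Sema4c and Unc5b lie higher in CD133(high)CD71(low) libraries; Sema3c and Cttnbp2 lie higher in those libraries on the right.

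Among other genes of these pathways both neuropilins fell. Of 23 further family members 10 were tested, of which 1 rose and 3 fell, with a median log2 fold change of 0.30, against 6.25% higher, 7.22% lower and a median of 0.31 over all genes. Nrp1, the co-receptor of secreted semaphorins and of VEGF, measured 6.18, 4.84 and 2.87 RPKM in CD133(high)CD71(low) libraries, against 23.8 and 23.0 in CD133(positive)CD71(negative) libraries (log2 fold change -2.16 with an SE of 0.27 and limma adjusted p = 0.00792). Nrp2 measured 0.64, 0.64 and 0.225 against 2.72 and 2.66 (log2 fold change -1.31, limma adjusted p = 0.00845). It averaged 0.50 RPKM in CD133(high)CD71(low) libraries and passed the filter only through the CD133(positive)CD71(negative) libraries, at 2.69. The third gene that fell was Robo4, the endothelial Robo, which the endothelial list also holds. Flrt2, encoding a membrane ligand of UNC5 receptors, rose, at 4.74, 5.12 and 8.17 against 1.63 and 1.82 (log2 fold change 1.33 with an SE of 0.23 and limma adjusted p = 0.0213).

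Of 17 co-receptors and alternative receptors 14 were tested, of which 3 rose and 4 fell, with a median log2 fold change of 0.26, against the same 6.25% and 7.22% of all genes. Erbb2, a kinase that associates with B plexins, measured 15.2, 15.5 and 16.2 RPKM in CD133(high)CD71(low) libraries, against 8.50 and 9.60 in CD133(positive)CD71(negative) libraries (log2 fold change 0.73, limma adjusted p = 0.017). Ptk7 rose similarly, at 14.0, 14.3 and 14.5 against 8.16 and 8.84. Cd72, the B cell receptor of Sema4d, fell, at 0.45, 0.28 and 0.52 against 2.40 and 3.08 (log2 fold change -1.40, limma adjusted p = 0.0043), and so did the proteoglycan gene Sdc3, at 9.56, 7.99 and 9.54 against 16.7 and 17.0. Cd72 averaged 0.42 RPKM in CD133(high)CD71(low) libraries and passed the filter only through the CD133(positive)CD71(negative) libraries, at 2.74.

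Of 64 intracellular mediators 55 were tested, of which 3 rose and 3 fell, close to the share of all genes, with a median log2 fold change of 0.21. Dpysl4, of the collapsin response mediator family, measured 29.2, 26.8 and 28.0 RPKM in CD133(high)CD71(low) libraries, against 16.8 and 19.4 in CD133(positive)CD71(negative) libraries (log2 fold change 0.61, limma adjusted p = 0.0309). The kinase genes Fyn (2.91, 2.28 and 2.61 against 7.51 and 7.72) and Fes (7.73, 6.24 and 6.05 against 15.1 and 16.4) fell, with log2 fold changes of -1.26 and -1.13 (limma adjusted p = 0.00453 and 0.00833).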

How the data were processed

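RNA of freshly sorted mouse pancreas cells was sequenced in 5 libraries. For each library the authors deposited a table of gene symbols and values. Partek and mm10 are named in the submitters' processing notes; aligner, annotation and versions: not given in the sources used here. The deposited values behave as RPKM (FPKM cannot be told apart): over 5 ranges of low values, 49.9% to 61.8% of the products with transcript length lay within 0.05 reads of a whole number, too few to recover counts. A row of library 3 that names no gene was left out.

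Groups came from the sample titles. A pseudocount of 1 was added before taking log2, and limma 3.58.1 in R 4.3.3 (empirical Bayes, mean-variance trend) tested the 11769 genes whose mean reached 1 RPKM, with Benjamini-Hochberg adjustment over all of them and a threshold of 0.05. Fold changes on this scale understate changes of low genes. Exact permutation of 3 against 2 libraries reaches no two-sided p under 0.2 and was not run. No library held the same reads as another of its group. Variance between libraries exceeded read sampling 3.25 to 3.26 times (CD133(high)CD71(low) 1 and 2), 24.2 to 37.1 times (library 3 with either) and 2.99 to 3.79 times (CD133(positive)CD71(negative)), over the depths found. That cannot tell separate animals or sorts from repeat preparations of the same sort. The 5 ranges were added after a first depth estimate was seen to depend on the range. The fit and the depth finder were tested on simulated data. For the fit the simulated spread came from CD133(high)CD71(low) libraries 1 and 2 alone, so the test does not cover the spread that library 3 adds. The members, the further lists, the markers and the naming rule were chosen with earlier results of these data known; every member is named, with up to 2 risen and 2 fallen genes of each further list by adjusted p, and Robo4 was named after its values were seen; 1 gene that the rule gives is not reported here. Positions are from GENCODE M21 (mm10), promoters from RefSeq. Alternatives were a pseudocount of 0.1, no filter, a minimum mean of 5, scaling by median of ratios or quantiles, no trend, each library left out, the replicate number as a block, and the 4 numbered libraries alone with other scaling or all their symbols. Figures were made with Python 3.11.15 and matplotlib 3.10.9.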

Additional observations from a re-analysis of the deposited data

How the results depend on the processing

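The 15 called guidance genes kept their direction under every alternative tried. Besides the settings given above, 3 guidance genes were higher with quantile normalization, against 2 with median-of-ratios scaling (841 higher and 1037 lower genes in all with quantile normalization), and 4 were lower with a mean of at least 5 RPKM, where 4 of the 8 were tested. Leaving out 1 library gave 0 to 14 higher and 0 to 9 lower guidance genes, and 0 to 4785 higher and 154 to 1425 lower genes in all. The 4 numbered libraries with all their symbols gave 14 higher guidance genes (4780 higher and 1431 lower in all), and with median-of-ratios scaling 9 higher and 9 lower guidance genes, all 15 among them, and 1438 higher and 2090 lower genes in all. Median-of-ratios scaling of 5 libraries gave 220 higher genes in all, no filter 1729 lower, and a mean of at least 5 RPKM 315 lower. The replicate block, in which library 3 stands alone, gave 14 higher guidance genes (5325 higher and 1492 lower in all). Same-numbered libraries 1 and 2 did not deviate together (r = -0.0099), which cannot tell whether they shared animals or a sort.

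Among the tested genes that were not called, Sema3f, Sema4a, Sema4d and Plxna1 changed sign under some alternatives, and the others kept theirs. With median-of-ratios scaling the log2 fold change was -0.16 for Sema3f, -0.23 for Sema4a, -0.26 for Sema4d and -0.030 for Plxna1; with quantile normalization it was -0.13, -0.19 and -0.19 for the first 3. Sema4a was at -0.026 and Sema4d at -0.0011 without library 3, with the replicate block and with the numbered libraries' own symbols, at -0.24 and -0.21 with those libraries and median-of-ratios scaling, and at -0.013 and -0.0019 without CD133(positive)CD71(negative) library 1, with highs of 0.19 and 0.093 without CD133(positive)CD71(negative) library 2. The cause was not tested. With 1 library left in CD133(positive)CD71(negative), it is assumed to vary like the others. The number of libraries limits the precision, and depth was not settled for 2 of them.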
